A study of Mus musculus with 8 samples.

Results

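Semaphorins, plexins and neuropilins were followed in whole lungs of BALB/c mice that carry an inducible, lung-specific interleukin-1b (IL-1b) transgene. The 31 genes comprise 20 semaphorins, 9 plexins and 2 neuropilins, out of 27202 genes on the array. They were chosen by the array's gene symbols (Sema followed by a digit, Plxna to Plxnd, Nrp1 and Nrp2). This rule uses no measured value, though earlier results of these data were known when it was chosen. Every mouse in both groups carried the transgene, and doxycycline (dox) induces it: 3 arrays are of animals on plain water and 5 of animals on dox. Treatment lasted 7 days, and the labels describe inflamed and emphysematous lungs in the dox group. The labels put the age at about 12 weeks, although the header of a deposited table gives 5 weeks. The labels do not name the promoter of the transgene, and no dox group lacking it was analysed here. Effects of dox and of IL-1b therefore cannot be told apart. The labels call the samples replicates without naming separate animals, so p-values measure only the spread between these samples.

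Semaphorins are guidance signals, first known for steering growing axons, that share an extracellular sema domain. Class 3 members are secreted, classes 4 to 6 span the membrane and class 7 is held by a lipid anchor. Plexins are their main receptors and act on small GTPases and the cytoskeleton. Most class 3 members also need a neuropilin, a co-receptor that binds vascular endothelial growth factor (VEGF) as well. In lung these genes are known for roles in vessel and alveolar development and in the traffic and activation of immune cells.

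Expression was read as RMA intensity, the authors' background-corrected and normalized signal of a probe set, and each gene was represented by its brightest probe set over the 8 arrays. Differences are given as log2 changes, dox minus water, with the standard error (SE) from limma, and a gene is called when its Benjamini-Hochberg adjusted p over all 27202 genes is under 0.05. Array medians ran from 40.8 to 41.9 units and lower quartiles from 13.9 to 14.5. No member's mean lay below the lower quartile, and those of Plxna3, Sema4g and Sema5b lay below the median. The lung markers Sftpc (25849 units in water and 25683 in dox, geometric means), Sftpb, Scgb1a1, Ager and Foxj1 were all measured, and 0 of these 5 were called by limma, with 2 at an unadjusted p under 0.05. Over all 27202 genes, 5091 had an unadjusted p under 0.05 in limma. In such bulk tissue, fewer cells of a type and less RNA per cell cannot be told apart.

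Of the 31 members, 5 were called: Sema4a and Plxnb2 rose, and Sema3a, Sema6a and Sema6d fell. That is 16.1% of the members, where 5.00% of all genes were called, 3.48% higher and 1.52% lower. These shares cover genes of unlike brightness, since 5805 of all 27202 genes but no member had a mean below the lower quartile. The changes were small, between 50.2% up for Sema4a and 26.2% down for Sema6a. The median log2 change was -0.07 over the members and -0.03 over all genes, and 21 members (67.7%) had a negative change, as did 57.5% of all genes. All 3 called falls were of ligands, and the 11 receptors gave 1 rise and 0 called falls in limma. With 1.52% of all genes called lower, 11 receptors are too few to show a difference from the ligands. The receptor Plxna4 passed as lower when its probe sets were averaged (limma adjusted p = 0.0166). An unadjusted p under 0.05 was seen for 4 receptors and for 5091 of all 27202 genes. Water and dox values did not overlap for 8 members, namely the 5 called ones with Sema3b, Sema4f and Plxna4. The share of all genes without overlap was 14.2%.

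Upstream sequences are shown for 4 of the 5 called genes to place the starts of rising and falling transcripts side by side. That of Sema6a, which fell, is not reported here. Each is the stretch of 250 bases before the most upstream start that RefSeq lists on GRCm38.p6, written 5′ to 3′ on the gene's strand: Plxnb2 (chr15:89180789-89181038, minus strand), Sema4a (chr3:88461183-88461432, minus strand), Sema6d (chr2:124089719-124089968, plus strand) and Sema3a (chr5:13396534-13396783, plus strand). Capitals mark matches to 5 letter patterns, each searched on both strands. The GC box was spelled as GGGCGG and the pattern of the factor AP-1 as TGANTCA. The CCAAT box was searched by the 5 letters of its name, the TATA box as TATAAA, and the pattern of the factor NF-kB as GGANTTTCC. None of these patterns contains another.
Plxnb2: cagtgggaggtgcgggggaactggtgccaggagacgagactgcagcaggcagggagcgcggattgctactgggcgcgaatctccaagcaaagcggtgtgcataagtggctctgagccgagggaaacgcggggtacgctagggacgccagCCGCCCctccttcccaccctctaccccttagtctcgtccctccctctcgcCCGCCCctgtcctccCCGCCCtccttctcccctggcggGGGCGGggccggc
Sema4a: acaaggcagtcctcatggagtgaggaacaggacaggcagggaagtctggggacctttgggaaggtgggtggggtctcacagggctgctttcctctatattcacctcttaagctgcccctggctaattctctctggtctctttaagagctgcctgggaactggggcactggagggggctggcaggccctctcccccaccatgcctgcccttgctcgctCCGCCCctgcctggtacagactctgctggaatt
Sema6d: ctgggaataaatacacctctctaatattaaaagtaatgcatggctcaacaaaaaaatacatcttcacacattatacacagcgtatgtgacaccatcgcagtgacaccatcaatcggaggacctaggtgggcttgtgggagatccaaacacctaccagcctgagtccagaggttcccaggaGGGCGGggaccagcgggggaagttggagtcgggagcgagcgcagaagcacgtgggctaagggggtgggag
Sema3a: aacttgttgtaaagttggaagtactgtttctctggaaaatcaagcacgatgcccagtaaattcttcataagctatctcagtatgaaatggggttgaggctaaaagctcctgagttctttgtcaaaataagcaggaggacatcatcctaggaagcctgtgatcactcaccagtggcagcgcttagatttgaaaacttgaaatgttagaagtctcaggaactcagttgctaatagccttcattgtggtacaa

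Only the GC box was found in these 4 windows, with 4 matches for Plxnb2, 1 each for Sema4a and Sema6d and none for Sema3a. The GC content was 69.2% upstream of Plxnb2, 59.6% for Sema4a, 52.4% for Sema6d and 40.8% for Sema3a, against a median of 52.4% over 32851 RefSeq windows of the same length. RefSeq windows were at hand for 26 of the 31 members, and 21 of these genes held a GC box in at least 1 window. By window, it was found in 27 of their 37, against 32.7% of all windows. The pattern holds only G and C, and windows of matched GC content were not compared. Windows of 1 gene were counted separately, so these shares show no excess particular to the members. By window, the AP-1 pattern was matched in 3 of the 37 (6.75% of all windows), the CCAAT box in 7 (33.8%), the TATA box in 0 (12.4%) and the NF-kB pattern in 0 (1.07%). RefSeq lists a further start for Plxnb2, 3 for Sema4a and 1 for Sema6d, and which of them these lungs used was not measured. A match is a run of letters and not a shown binding site.

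Sema4a, a class 4 membrane ligand known in mouse from dendritic cells and T cell priming, rose. Its intensity was 519.7, 404.6 and 446.7 units in water arrays 1 to 3 and 634.0, 724.5, 735.5, 632.4 and 693.5 units in dox arrays 1 to 5. Every dox array lay above every water array, and the spread was wider in water (SD 0.18 on the log2 scale) than in dox (SD 0.10). The log2 change was 0.59 ± 0.09 SE, or 50.2% higher (limma adjusted p = 0.00451). It ran from 0.50 to 0.68 when single arrays were left out and kept its call in all 8 of those fits.

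Plxnb2, a receptor for class 4 semaphorins found on many epithelial and immune cells, rose as well. Water arrays gave 1285, 1239 and 1172 units, and dox arrays gave 1630, 1630, 1720, 1702 and 1892 units. The groups lay apart by a wide margin, with dox 5 the highest. The rise was 0.48 ± 0.07 SE on the log2 scale, or 1.39-fold (limma adjusted p = 0.00307), and all 8 fits without 1 array kept the call. Plxnb2 and Sema4a each had a single probe set, so neither rise could be read a second time on these arrays.

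**Figure D1:**
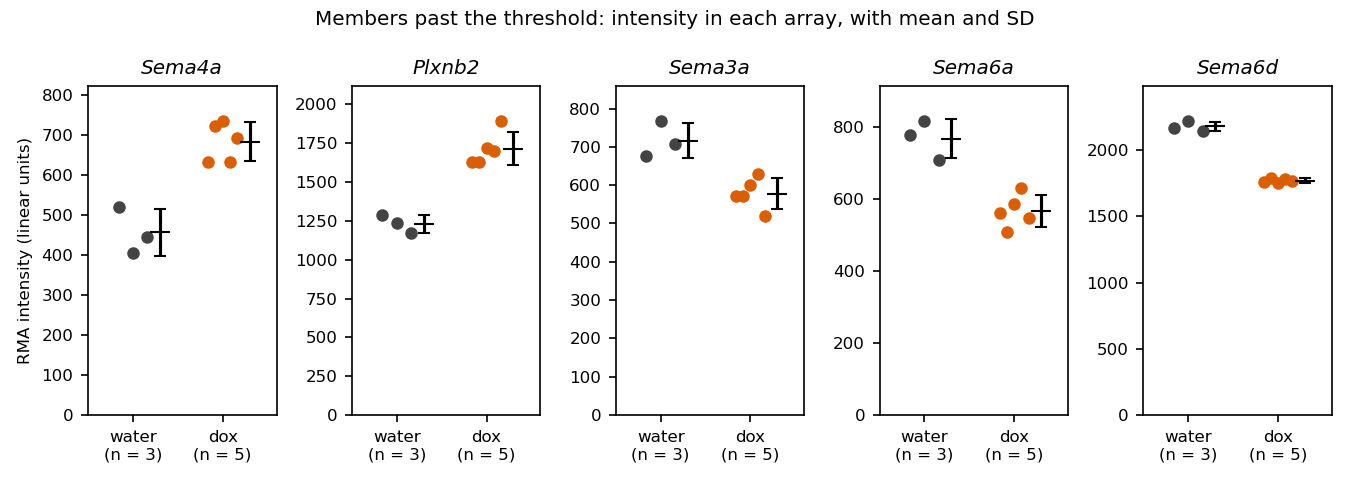
RMA intensity (linear units, axes from 0) of the 5 members past the threshold in each of the 3 water arrays (grey) and 5 dox arrays (orange), in array order from left to right, with the mean and SD of each group as black bars. No panel has overlapping groups, and the 5 dox values of Sema6d span only 1751 to 1791 units.

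Summed intensities of macrophage, dendritic cell and neutrophil markers were higher in the same dox arrays. Of 8 T cell and 6 B cell markers 0 were called by limma. An unadjusted p under 0.05 was seen for 1 and 0 of them, and for 5091 of all 27202 genes. Of 13 macrophage and monocyte markers 10 rose, and their summed intensity was 4787 to 5152 units in water and 9204 to 11889 in dox. Of 8 dendritic cell markers, 3 rose (Cd83, Itgae and Cd209a). Zbtb46 (-0.08), Ccr7 (-0.10) and Clec9a (-0.08) had negative log2 changes that did not pass. Sums of all 8 were 825 to 1095 units in water and 1376 to 1506 in dox. Xcr1 and Clec9a lay below the lower quartile of the arrays. Neutrophil markers rose in 5 of 10 cases, with sums of 2410 to 4983 units in water and 5168 to 10238 in dox. In these sums S100a8 alone read 1129 to 2616 and 2581 to 5073 units, with overlap. Mmp9 (0.44), Ly6g (0.17), Retnlg (0.92), Ngp (0.29) and Camp (0.26) had positive log2 changes that did not pass. Of the 10 markers, 3 were called without water 2, without water 3 or with the trend and robust prior. The part of these cells in the rises of Sema4a and Plxnb2 was not tested.

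Class 6 semaphorins, membrane ligands that signal mainly through A-type plexins, fell in 2 of 4 cases. Sema6d gave 2170, 2218 and 2148 units in water and 1760, 1791, 1751, 1785 and 1765 units in dox. Its values were the tightest of the called members, with SDs of 0.02 and 0.01 on the log2 scale. The log2 change was -0.30 ± 0.06 SE, a level 18.7% lower in dox (limma adjusted p = 0.0108), and the call held in all 8 fits without 1 array. A second, dimmer probe set moved the same way (-0.21 ± 0.08 SE, adjusted p = 0.217 over all 43681 probe sets).

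Sema6a, a ligand of Plxna2 and Plxna4, gave 778.2, 814.9 and 707.0 units in water and 559.4, 508.9, 585.8, 630.2 and 545.7 units in dox. The groups did not overlap, and dox 4 lay nearest to water. On the log2 scale the change was -0.44 ± 0.08 SE, or 26.2% lower (limma adjusted p = 0.0119). The call was lost without water 2 (-0.39, adjusted p = 0.0566) and when the gene's probe sets were averaged (-0.32, adjusted p = 0.0562), since its 2 further probe sets changed less (-0.32 and -0.19). Sema6b (-0.07) and Sema6c (-0.08) did not pass, with 95% intervals of -0.23 to 0.10 and -0.21 to 0.05.

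All 7 class 3 semaphorins had negative changes, from -0.02 to -0.42, though that of Sema3d turned to 0.0013 with array medians subtracted. Of these, 1 was called. Sema3a, which repels axons and also endothelial cells through Nrp1 and A-type plexins, gave 676.3, 766.8 and 706.4 units in water. Its dox arrays gave 571.8, 570.9, 599.8, 629.2 and 518.9 units, all below the lowest water array, and dox 5 was the lowest. The log2 change was -0.31 ± 0.08 SE, or 19.4% lower (limma adjusted p = 0.0465). This call lay close to the threshold and was lost without any single array but dox 4 (adjusted p up to 0.155).

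Sema3b, a secreted ligand of both neuropilins, had the next smallest p of the class and missed the threshold. Its intensity was 256.1, 244.2 and 241.3 units in water and 192.0, 202.8, 194.5, 224.6 and 211.4 units in dox, without overlap. Its log2 change was -0.27 ± 0.07 SE (limma adjusted p = 0.0534), and it passed without dox 4 (-0.31, adjusted p = 0.036), with the dimmest 25% of genes removed (0.0381), with quantile normalization repeated (0.0412) and with the trend and robust prior (0.0325). Sema3g, known from arterial endothelium, had a log2 change of -0.42 ± 0.15 SE with overlapping groups (171.3 to 238.5 units in dox and 208.3 to 332.4 in water, adjusted p = 0.16). It passed without water 1, whose value was the lowest of the water arrays (-0.60, adjusted p = 0.0448).

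Sema3c, a ligand of neuropilins and Plxnd1 known from heart and lung development, had the brightest probe set of the semaphorins. It gave 6637, 6878 and 5845 units in water and 5208, 5933, 6276, 6312 and 5995 units in dox. These groups overlapped (-0.12 ± 0.08 SE, adjusted p = 0.507), and the 95% interval of -0.30 to 0.07 allows a fall of the size seen for Sema6d. Sema3f, a ligand of Nrp2, changed by -0.13 ± 0.07 SE and Sema3d by -0.02 ± 0.09 SE, neither past the threshold.

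Sema3e, which binds Plxnd1 without a neuropilin, was read by 2 probe sets that differed. The brighter one gave 764.5, 891.9 and 779.9 units in water and 721.8, 732.3, 705.8, 782.6 and 699.0 in dox, with overlap (-0.15 ± 0.07 SE, adjusted p = 0.286). The dimmer one gave 596.1, 670.1 and 642.2 units in water and 509.2, 493.3, 480.8, 527.2 and 476.3 in dox, with none. On its own it passed over all probe sets (-0.35 ± 0.07 SE, limma adjusted p = 0.0194). Of all 43681 probe sets 3.10% passed, and of the 54 probe sets of the members 6 did, 2 higher and 4 lower.

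The other class 4 semaphorins did not pass. Sema4d, a ligand of B-type plexins and of Cd72 on B cells, gave 416.8, 273.0 and 285.9 units in water and 323.8 to 443.4 in dox. Water 1 was higher than 4 of the 5 dox arrays, and the log2 change was 0.24 ± 0.14 SE (adjusted p = 0.419) against 0.43 without water 1 (adjusted p = 0.0816). Sema4f changed by 0.14 ± 0.07 SE without overlap between groups (adjusted p = 0.289), and Sema4c, a Plxnb2 ligand, by 0.19 ± 0.10 SE. Sema4b changed by -0.09 ± 0.08 SE. Sema4g, which is dim (26.9 to 48.0 units), changed by -0.36 ± 0.14 SE (adjusted p = 0.18) and passed without dox 4 (-0.46, adjusted p = 0.0403).

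The single class 7 member and both class 5 members did not pass either. Sema7a, a lipid-anchored ligand of Plxnc1 and of integrins on monocytes, spread widely, with 236.4, 304.6 and 382.6 units in water and 315.4, 296.5, 320.9, 401.4 and 418.4 in dox. Its log2 change was 0.20 ± 0.16 SE (adjusted p = 0.562) with a 95% interval of -0.15 to 0.55. Sema5a, a membrane ligand of the nervous system that binds A-type plexins, stood at 346.6 to 387.8 units in water, at 285.0 to 346.7 in dox 1 to 4 and at 544.0 in dox 5. Its log2 change was -0.02 ± 0.17 SE, and -0.18 without dox 5. The dim Sema5b gave 21.5, 23.9 and 23.1 units in water and 23.3, 23.0, 20.9, 21.3 and 22.4 in dox, with overlap, and a log2 change of -0.04 ± 0.07 SE (adjusted p = 0.797).

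**Figure D2:**
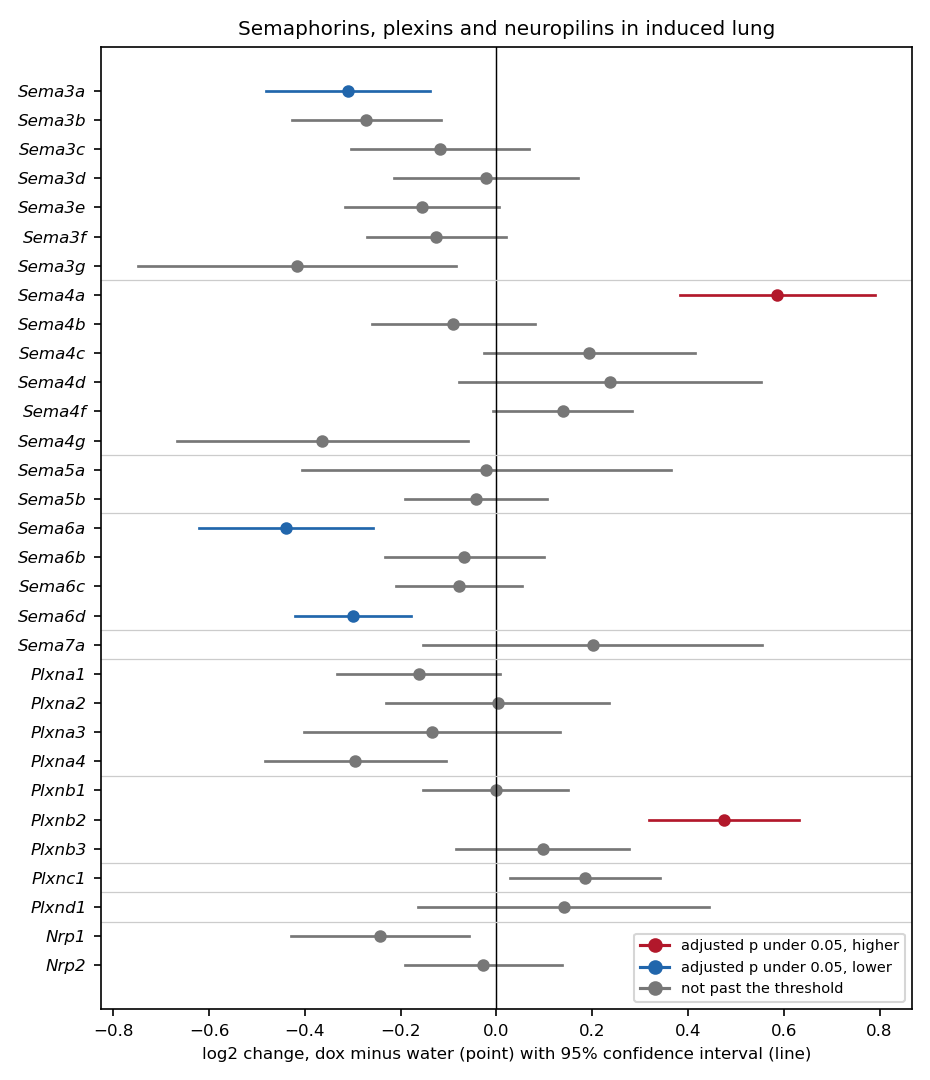
Log2 change of dox minus water (points) with limma's 95% confidence interval (lines) for all 31 members, ordered by class. The 5 called genes are coloured, red for Sema4a and Plxnb2 and blue for Sema3a, Sema6a and Sema6d, and the class 6 points lie left of 0 from -0.44 to -0.07.

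Of the 9 plexins, Plxnb2 was the only one called. Within the B group, Plxnb1, the main Sema4d receptor, gave 390.0, 363.1 and 382.1 units in water and 361.2 to 417.0 in dox (0.00 ± 0.07 SE, 95% interval -0.15 to 0.15). Plxnb3 changed by 0.10 ± 0.08 SE at a low level of 44.5 and 47.6 units. Both intervals end below the change of Plxnb2, but a difference between these genes was not tested.

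The A-type plexins are the receptors of class 6 and, with neuropilins, of class 3 semaphorins. Plxna4 came closest to the threshold, with 310.7, 330.0 and 306.2 units in water and 280.0, 225.4, 248.3, 286.4 and 250.7 in dox. The groups did not overlap (-0.29 ± 0.09 SE, limma adjusted p = 0.0832), and all 4 of its probe sets had negative changes, from -0.25 to -0.47. It passed when these were averaged (-0.33, adjusted p = 0.0166) and with the trend and robust prior (0.0443). The largest change came from its dimmest probe set (15.6, 15.2 and 15.8 against 10.1 to 13.0 units), called on its own (adjusted p = 0.0104) but with dox values under the lower quartile of the arrays.

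Plxna1, part of a Sema6d receptor with Trem2 and Tyrobp on mouse dendritic cells and osteoclasts, changed by -0.16 ± 0.08 SE and did not pass (adjusted p = 0.292). Plxna2 (0.00 ± 0.10 SE) and the dim Plxna3 (-0.13 ± 0.12 SE) did not pass. Plxnd1, the Sema3e receptor of endothelium, gave 305.2, 326.1 and 213.5 units in water and 260.0, 316.7, 342.5, 292.0 and 322.1 in dox. Water 3 lay far below all other arrays, and the log2 change of 0.14 ± 0.14 SE (adjusted p = 0.649, 95% interval -0.16 to 0.44) became -0.05 without it.

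Plxnc1, the Sema7a receptor, is found on leukocytes. Its brightest probe set gave 301.2, 314.7 and 288.6 units in water and 345.8, 311.3, 372.4, 341.2 and 345.0 in dox, where dox 2 alone fell within the water range. The log2 change was 0.19 ± 0.07 SE (adjusted p = 0.19). The next probe set gave 115.7, 119.3 and 95.4 units against 127.0 to 174.2 without overlap (0.46 ± 0.12 SE, adjusted p = 0.0626 over all probe sets). The third changed by 0.90 ± 0.22 SE (adjusted p = 0.0595) and the dimmest by -0.03 ± 0.20 SE. Its size thus depends on the probe set, from -0.03 to 0.90, and no probe set of Plxnc1 was called.

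Nrp1, the co-receptor for Sema3a and VEGF that is abundant on endothelium, gave 4930, 4574 and 3949 units in water and 3519, 3584, 3876, 3990 and 3920 in dox. Only water 3 overlapped the dox arrays. The log2 change was -0.24 ± 0.08 SE, 15.5% lower, and did not pass (limma adjusted p = 0.141; 0.0605 without water 3). All 4 probe sets of Nrp1 had negative changes, from -0.13 to -0.33, and none was called. Nrp2, the Sema3f receptor found on veins and lymphatics, changed by -0.03 ± 0.07 SE with a 95% interval of -0.19 to 0.14. Its second probe set was nearly as bright (465.5 against 469.6 units) and changed by -0.15 ± 0.07 SE (limma adjusted p = 0.333 over all probe sets). All 4 probe sets of Nrp2 had negative changes, from -0.03 to -0.23, and none was called.

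**Figure D3:**
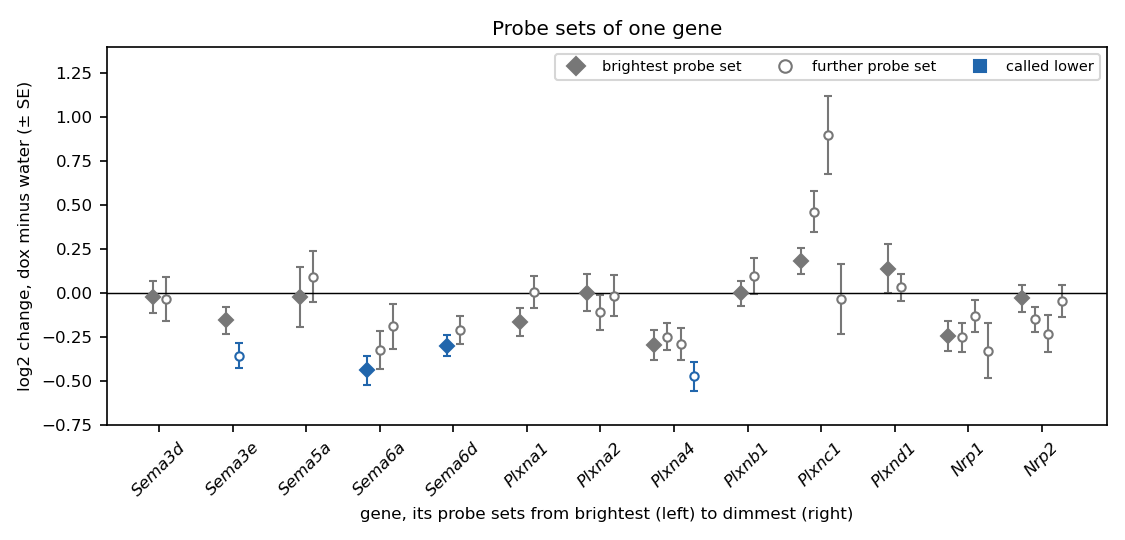
Log2 change of dox minus water with limma's SE for each probe set of the 13 members that have several, brightest first (filled diamonds) and further ones as open circles, blue where called over all probe sets. Probe sets of Nrp1, Plxna4, Sema6a and Sema6d lie on 1 side of 0, and those of Plxnc1 spread from -0.03 to 0.90.

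Summed intensities of endothelial and alveolar type 1 markers were lower in the same dox arrays. All 12 endothelial markers had negative changes (median -0.25), 0 were called by limma and 10 had an unadjusted p under 0.05 (4 were called with the trend and robust prior). Their summed intensity was 29763 to 31551 units in water and 24729 to 27925 in dox. An unadjusted p under 0.05 was reached by 5091 of all 27202 genes. Of 8 alveolar type 1 markers 0 were called by limma (2 with the trend and robust prior) and 4 had an unadjusted p under 0.05, with sums of 41728 to 42140 units in water and 35290 to 39356 in dox. The falls of Sema6d (-0.30), Sema6a (-0.44) and Sema3a (-0.31) stood beside endothelial and type 1 marker medians of -0.25 and -0.18. Medians were also negative for smooth muscle (-0.27, all 6 negative), fibroblast (-0.20, 5 of 8) and B cell markers (-0.18). Those of lymphatic (-0.07), Schwann cell (-0.06), T cell (-0.01) and alveolar type 2 markers (0.03) lay nearer to 0. The part of these cell types in the falls was not tested. Of further lists, 3 of 8 alveolar type 2 markers rose, 1 of 7 Schwann cell markers fell (Pmp22), and 0 each of 6 smooth muscle and 5 lymphatic markers were called by limma, with 3 and 1 at an unadjusted p under 0.05. Of 8 fibroblast markers 1 was called lower, Tcf21 (adjusted p = 0.0494), a call lost without any single array but water 1 or dox 4; Col1a1, Col1a2 and Col3a1 had positive changes (0.41, 0.44 and 0.28) that did not pass.

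Among individual arrays, dox 4 often lay nearest to water. The median deviation of the 31 members from their water mean was -0.01 in dox 4 and -0.03 in dox 5, against -0.09 in dox 1 and -0.12 in both dox 2 and dox 3. Dox 4 held the highest dox value in 10 members and the lowest in 1. Water 3 held the lowest water value in 17 members and water 2 the highest in 17. The macrophage marker sum was also lowest among dox arrays in dox 4 (9204 units), and its endothelial sum was the highest of them (27925 units).

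**Figure D4:**
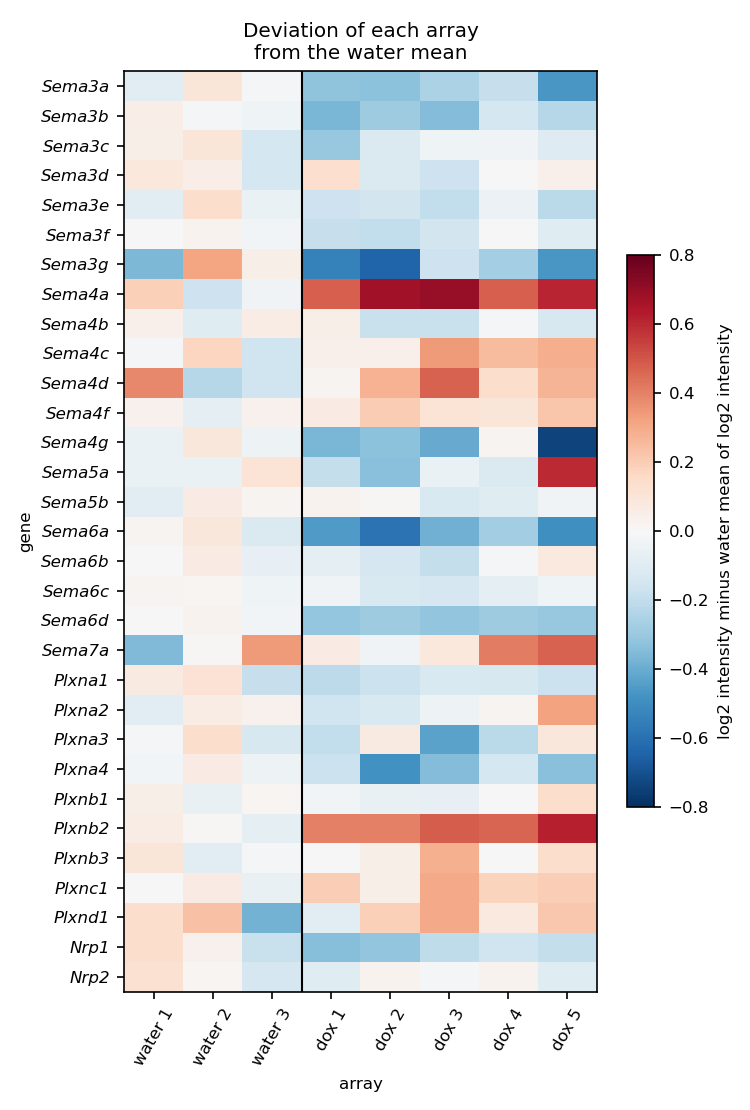
Log2 intensity of each member in each array minus its mean over the 3 water arrays, red above and blue below, ordered by class with water arrays left of the line. Sema4a and Plxnb2 are red and Sema6d and Sema6a are blue in all 5 dox arrays. Among the dox arrays, Sema5a is red in dox 5 alone.

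Partners outside the family were read from 4 lists of co-receptors, intracellular effectors, ligand-processing proteases and neuropilin-binding growth factors. Together 7 of their 67 genes were called (10.4%), 4 higher and 3 lower, with a median log2 change of -0.03. Of all genes 5.00% were called, 3.48% higher and 1.52% lower. Of 18 co-receptors 3 rose. Trem2, which pairs with Plxna1, gave 68.8, 53.1 and 53.8 units in water and 116.4 to 153.9 in dox (1.23 ± 0.12 SE, limma adjusted p = 0.000152). Its signalling adaptor Tyrobp rose 1.65-fold, from 2379 to 3918 units (adjusted p = 0.0108), a call lost without water 2 (0.054) or water 3 (0.0506). Both are myeloid genes, and they rose where Plxna1 did not pass and Sema6d fell. Chl1, an adhesion protein that joins Nrp1 in Sema3a signalling in neurons, gave 28.9 to 53.6 units in dox (limma adjusted p = 0.000403). Its water values of 8.8 to 11.9 lay under the lower quartile of the arrays, near the background of the arrays, so the size of its log2 change (1.93 ± 0.21 SE) is uncertain; it was 1.10 when its probe sets were averaged.

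Of 36 effectors 1 rose and 1 fell, a share of 5.56% that is near the 5.00% called over all genes. Pak1, a kinase downstream of Rac, rose from 234 to 299 units (0.35 ± 0.07 SE, limma adjusted p = 0.0213), a call lost without water 2 (0.0785) or water 3 (0.085). Dpysl5, of the collapsin response mediator family that relays Sema3a signals in neurons, fell from 89.5 to 63.1 units (-0.50 ± 0.12 SE, adjusted p = 0.0436) and lost its call without any single array but dox 1 (up to 0.147). Fes, a kinase that binds plexin A1, changed by 0.35 ± 0.11 SE and did not pass (adjusted p = 0.0997).

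Of 7 proteases that cut semaphorins or their receptors 1 fell, Pcsk6, a proprotein convertase. It gave 227.9, 252.9 and 238.0 units in water and 156.9 to 181.0 in dox (-0.50 ± 0.07 SE, limma adjusted p = 0.00226), and the call held without any 1 array. Adamts1 (-0.33 ± 0.11 SE) and Mmp14 (0.37 ± 0.16 SE) did not pass. Of 6 growth factors that neuropilins or their partners bind, Vegfd, a lymphatic growth factor, fell from 1084 to 765 units (-0.50 ± 0.09 SE, adjusted p = 0.00828) and kept its call without any 1 array. Vegfa (-0.22 ± 0.07 SE, adjusted p = 0.114) and Hgf (-0.24 ± 0.11 SE, adjusted p = 0.256) did not pass, Vegfa without overlap between groups (5997 to 6912 units in dox and 6994 to 7907 in water).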

How the data were processed

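Whole-lung RNA of 3 water and 5 dox samples was amplified to biotin-labelled cRNA for a 1-colour array, per the labels' protocols. Per the submitters' processing notes, RMA produced the deposited intensity values, which are linear; no version is named. RMA equalises arrays, so a change in total RNA cannot be seen, and the number of arrays limits the precision. Symbols came from the annotation of the deposited text table, updated with RefSeq names of GRCm38.p6: of 43681 probe sets, 17218 were named by accession, 13435 by a current and 1890 by an older symbol, 4451 kept the array's symbol and 6687 had none. The text table's 8 intensity columns match no sample label and were not used.

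Log2 values were tested with limma 3.58.1 in R 4.3.3 (lmFit, eBayes, 2-sided), with Benjamini-Hochberg adjustment over 27202 genes, each by its brightest probe set. Members, lists, tests and patterns were chosen with earlier results of these data known. All 31 members were named. Values per array were given for called members, for the smallest p of a class without a call and for the brightest semaphorin and plexin, and from each partner list the 3 smallest p; other genes given per array were chosen after their values were seen. On simulated arrays for dox against water (27202 genes, 200 changed), the fit found 72% of 1.5-fold, 94% of 2-fold and 100% of 3-fold and 4-fold changes, with 7 unchanged genes among 190 calls. Changes smaller than 1.5-fold, such as those of Plxnb2, Sema3a, Sema6a and Sema6d, were not simulated. Upstream windows are RefSeq's; 5 members had none. Plots used matplotlib 3.10.9.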

Additional observations from a re-analysis of the deposited data

Results flagged for a closer look

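Among the members and the named partner genes, 1 set of dox values held an array far from the others. Adamts1, a metalloproteinase, read 858.1 units in dox 1 and 1098 to 1159 units in dox 2 to 5, a gap of 0.821 of the whole range on the log2 scale. Chance sets off this criterion in about 1 in 20 groups.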

How the results depend on the processing

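All 5 calls stood with the trend and robust prior, with quantile normalization repeated, with the dimmest 25% of genes removed and with array symbols not updated; the rises of Sema4a and Plxnb2 and the fall of Sema6d were lost in 1 alternative of 17, the replicate block. Same-numbered arrays did not deviate together (correlations of 0.011, 0.064 and -0.165), so the numbers are not taken to pair samples. Dox arrays 4 and 5 share no number with a water array, so the block fit rests on replicates 1 to 3 alone and has less power. With the replicate number as a block, 0 members were called higher and 0 lower (adjusted p of 0.0646 for Sema4a, 0.0711 for Plxnb2, 0.0831 for Sema6a, 0.147 for Sema6d and 0.181 for Sema3a), 505 genes were higher and 100 lower, and partner genes called lower numbered 1. The trend and robust prior called 5 members, 5 partner genes and 664 genes lower, and every probe set on its own 275 genes lower. With Sema3a lost, array weights, subtracted array medians and single probe sets left 2 called falls. Without 1 array, members called lower ran from 1 (water 2) to 5 (dox 4), members called higher stayed at 2, partner genes called higher ran from 2 (water 2 or 3) to 4, and genes called lower from 206 to 409. Averaging a gene's probe sets kept 3 falls in number, with Plxna4 in and Sema6a out.

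Signs turned for 6 members, none called: Nrp2, Plxna2, Plxnb1, Sema3d and Sema5a, whose changes lay between -0.03 and 0.00, and Plxnd1 (0.14), which turned without water 3. Array weights gave -0.0256 and repeated quantile normalization -0.0068 for Plxna2; subtracted medians gave 0.0218 for Plxnb1, 0.0013 for Sema3d and 0.0019 for Sema5a; averaged probe sets gave -0.04 for Plxna2, 0.0477 for Plxnb1 and 0.0367 for Sema5a; the block gave -0.1086 for Plxna2. Without 1 array, changes ran from -0.0964 to 0.0337 for Nrp2, -0.0765 to 0.0433 for Plxna2, -0.0368 to 0.0208 for Plxnb1, -0.0474 to 0.2581 for Plxnd1, -0.0922 to 0.0214 for Sema3d and -0.1753 to 0.0579 for Sema5a. The cause of these moves was not tested. Of the changes recomputed for members and named partners, 660 kept their direction and their side of the threshold, 34 lost the call and 9 gained one. Signals near the lower quartile limit what can be read for Chl1, Sema5b and Plxna3.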
